A study of Mus musculus with 6 samples.

Results

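Adgrg6, Ano1 and Tubb2a are 3 genes of 18193 named on the array, and they were chosen by their intensities, which were lower in brown adipocytes with PGC-1β knocked down than in their control cells. All 6 probe sets whose annotation gives only 1 of these symbols were taken, 2 for each gene (Adgrg6 was formerly written Gpr126). Differentiated mouse brown fat cells were profiled on 6 one-colour oligonucleotide arrays after 7 days of differentiation, in 3 groups of 2 arrays. The knockdown group was PGC-1α -/- cells expressing an siRNA specific for PGC-1β, the knockout-control group was PGC-1α -/- cells expressing a control siRNA, and the wild-type group was WT cells for which the titles name no siRNA. All were immortalised by SV40 large T antigen, and wild type alone has a passage number, 4, and a stated mixed mouse background. Both siRNA groups thus carry the PGC-1α -/- label, and the genotype, the siRNA and the cell line cannot be told apart wherever wild type is compared. The titles name 1 siRNA against PGC-1β, so loss of PGC-1β cannot be told apart from other effects of that siRNA or from a difference between the cell populations.

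PGC-1α and PGC-1β are transcriptional coactivators that bind nuclear receptors and other factors and raise genes of mitochondria and heat production. Adgrg6 is an adhesion G protein-coupled receptor that raises cyclic AMP through the stimulatory G protein, binds type IV collagen, laminin-211 and the prion protein, and is best known for starting myelination by Schwann cells. Ano1 is a calcium-activated chloride channel of secretory epithelia, smooth muscle and the pacemaker cells of the gut. Tubb2a is a β-tubulin isotype, a building block of microtubules that is abundant in neurons. In brown fat, cyclic AMP is the messenger by which noradrenaline turns on heat production.

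The promoter windows of the 3 genes allow a search for letters bound by PGC-1 partners and by cyclic AMP-responsive factors. That the signals of these genes fell together was fixed by their choice. Each window is RefSeq sequence of GRCm38.p6 on the minus strand, from 250 bases before to 50 after the 1 start that the promoter table gives for the gene. That start is the outer end of the annotated gene for Tubb2a, but it lies 687 bases inside that end for Adgrg6 and 13453 bases inside it for Ano1, genes with several annotated transcripts each; the windows before those outer ends are not shown, and positions below count from the table's start. Capitals mark GC boxes (GGGCGG), a cAMP response element (TGACGTCA) and a TATA box (TATAAA), each searched on both strands.
Adgrg6, chr10:14544987-14545286: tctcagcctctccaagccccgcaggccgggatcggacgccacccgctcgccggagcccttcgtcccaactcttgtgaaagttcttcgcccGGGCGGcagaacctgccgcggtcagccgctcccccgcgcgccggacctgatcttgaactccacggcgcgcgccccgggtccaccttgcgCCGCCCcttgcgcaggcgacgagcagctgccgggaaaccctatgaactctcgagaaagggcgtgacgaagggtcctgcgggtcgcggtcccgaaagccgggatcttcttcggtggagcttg
Ano1, chr7:144738524-144738823: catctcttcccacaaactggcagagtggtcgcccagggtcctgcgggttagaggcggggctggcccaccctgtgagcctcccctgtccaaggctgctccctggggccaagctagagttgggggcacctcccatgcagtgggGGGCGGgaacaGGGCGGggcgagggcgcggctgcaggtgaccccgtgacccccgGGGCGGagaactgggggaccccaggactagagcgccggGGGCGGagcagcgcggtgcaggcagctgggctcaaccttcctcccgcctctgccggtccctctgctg
Tubb2a, chr13:34077959-34078258: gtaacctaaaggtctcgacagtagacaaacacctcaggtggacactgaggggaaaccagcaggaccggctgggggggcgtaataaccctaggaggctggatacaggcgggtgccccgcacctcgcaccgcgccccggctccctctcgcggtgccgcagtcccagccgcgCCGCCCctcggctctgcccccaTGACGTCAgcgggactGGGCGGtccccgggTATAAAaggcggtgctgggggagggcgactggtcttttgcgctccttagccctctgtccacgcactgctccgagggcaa

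All 3 windows were rich in G and C, at 69.0% for Adgrg6, 71.7% for Ano1 and 67.0% for Tubb2a, against a median of 52.7% over 32851 RefSeq promoter windows of the same length. GC boxes numbered 2, 4 and 2 in these windows, and 35.7% of all windows hold at least 1. The Tubb2a window alone held the full cAMP response element, 59 bases before the start, which 1.79% of all windows hold, and a TATA box 29 bases before the start, which 13.6% hold. The letters TGACG, which lie within that element, also lay 9 bases before the table's start of Adgrg6, within the annotated gene (20.8% of all windows hold them). The core letters bound by estrogen-related receptors, AAGGTCA (4.72% of windows), the NRF1 site core (0.971%), a peroxisome proliferator response element with a spacer of 1 base (0.0396%), and CCAAT (37.4%) were in none of the 3 windows. A match of letters is a description of the window and shows no binding.

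The adipocyte label was examined first. Fabp4, the fatty acid binding protein of adipocytes, had intensities of 13496 to 15531 over the 6 arrays, and Adipoq, which encodes adiponectin, 9523 to 12129. The summed intensity of the 5 adipocyte markers measured lay between 39035 and 40222 in knockdown cells, 41660 and 44163 in knockout-control cells and 44065 and 44260 in wild-type cells. Lep, which encodes leptin, was low in both siRNA groups, at 14.3 and 64.4 in knockdown cells and 47.4 on the knockout-control array with a value. In wild-type cells it stood at 813 and 892, and it was below the filter and not tested. Pparg was lowest in wild-type cells, at 4029 and 4169, against 5310 and 5263 in knockout-control and 4864 and 4239 in knockdown cells. Ucp1, the uncoupling protein of brown fat, stood at 156 and 105 in knockdown cells, 4199 and 3725 in knockout-control cells and 4488 and 4761 in wild-type cells, so this defining marker of brown fat was low in the knockdown group. The siRNA target Ppargc1b stood at 534 and 224 in knockdown cells, 1862 and 2302 in knockout-control cells and 2850 and 3162 in wild-type cells. Ppargc1a, the gene labelled as knocked out, still gave signal in both groups with that label. Its brightest probe set stood at 1146 and 648 in knockdown cells, 767 and 830 in knockout-control cells and 1338 and 1319 in wild-type cells. All 5 of its probe sets were lower on both knockout-control arrays than on both wild-type arrays. The sources used here do not say whether these probes lie in the deleted part, so they check nothing, and the loss of PGC-1α rests on the labels.

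The summed intensity of 6 brown adipocyte markers lay between 6771 and 8739 in knockdown cells and between 18820 and 19175 in knockout-control cells. Of these, Ucp1, Cidea, Dio2 and Cox7a1 were called lower in knockdown than in knockout-control cells, where 0.564% of all genes were. Their limma adjusted p-values were 3.44e-05, 0.0167, 0.00051 and 0.0193, and these calls were not checked with each array left out. Prdm16 was not (-0.39, limma adjusted p = 0.272). Elovl3 did not fall, at 2527 and 1612 in knockdown cells, 1686 and 1903 in knockout-control cells and 240 and 209 in wild-type cells. The summed intensity of 5 preadipocyte and fibroblast markers lay between 2352 and 2658 in knockdown cells and between 1193 and 1585 in knockout-control cells. Among the 5, Dlk1, a preadipocyte marker, passed the test (log2 fold change 1.82, limma adjusted p = 0.00696). It stood at 1609 and 1452 in knockdown cells and 384 and 438 in knockout-control cells. The other 3 above the intensity filter did not pass, and Cd34 was below it. Pdgfra differed by 0.52, Pdgfrb by -0.40 and Thy1 by -0.25, so the list did not rise as a whole. Dlk1 did not pass without knockout-control array 1 or 2 (limma adjusted p = 0.0764 and 0.0768). The part of these marker differences in the fall of the 3 genes was not tested. In bulk RNA, fewer cells of a type and less RNA per cell cannot be told apart.

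The brightest probe set of Adgrg6 had intensities of 39.2 and 55.6 in knockdown cells, 822 and 649 in knockout-control cells and 771 and 552 in wild-type cells. Both knockdown arrays were far below the other 4, whose ranges overlapped between knockout-control and wild type. The knockdown mean of 47.4 ± 11.6 (SD, n = 2) was 6.45% of the knockout-control mean of 736 ± 123, and it lay under 163.6, the intensity below which genes were left out as dim. On the scale of log2(intensity + 32), which understates the change of dim signals, Adgrg6 fell by 3.27 between knockdown and knockout-control cells, a 9.65-fold difference. Only 1 of the 13649 genes with a value in that comparison, Ucp1, fell further. This fall is what the gene was chosen for, so no test is given for it, and the same holds for Ano1 and Tubb2a.

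The other probe set of Adgrg6 was dim on every array. It stood at 31.9 and 30.6 in knockdown cells, at 30.7 on the knockout-control array with a value (the other held the word null) and at 78.4 and 11.6 in wild-type cells. Its wild-type arrays differed 6.73-fold from each other, so at this intensity it showed no order of the groups. The fall of Adgrg6 therefore rests on 1 probe set.

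Both probe sets of Ano1 were lower in knockdown cells. The brightest stood at 219 and 236 in knockdown cells, 1174 and 1354 in knockout-control cells and 1675 and 1773 in wild-type cells, with no overlap between any of the groups. The knockdown mean of 227 ± 12 (SD, n = 2) was 18% of the knockout-control mean of 1264 ± 127 and 13.2% of the wild-type mean of 1724 ± 69.5. Against knockout-control cells it fell by 2.32 on the log2 scale, or 4.99-fold, the sixth lowest of the 13649 values.

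The other probe set of Ano1 stood at 157 and 278 in knockdown cells, 614 and 615 in knockout-control cells and 766 and 806 in wild-type cells. Its groups again did not overlap, and they had the same order. The knockdown mean was 35.4% of the knockout-control mean, a smaller log2 difference of -1.42. Ano1 was thus the member whose 2 probe sets both showed the difference, by different amounts.

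The brightest probe set of Tubb2a had intensities of 345 and 136 in knockdown cells, 1005 and 1236 in knockout-control cells and 807 and 1295 in wild-type cells. The knockdown arrays lay below the others, but they differed 2.53-fold from each other, and the wild-type arrays, 1.61-fold apart, lay on both sides of the knockout-control pair. The knockdown mean of 241 ± 148 (SD, n = 2) was 21.5% of the knockout-control mean of 1120 ± 163, a log2 difference of -2.19 (4.55-fold, the eighth lowest value). Without knockdown array 2 that difference was -1.60, and without knockdown array 1 it was -2.77.

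The other probe set of Tubb2a did not show a fall. It stood at 380 and 254 in knockdown cells, 305 and 242 in knockout-control cells and 283 and 226 in wild-type cells, so all 3 groups overlapped. Its difference between knockdown and knockout-control cells was 0.18 on the log2 scale. Both probe sets are annotated to Tubb2a alone, and the labels and tables used here do not say which part of the transcript each one reads. Whether either of them also reads other tubulin transcripts was not tested.

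The 2 knockout-control values of the brighter Tubb2a probe set were also written differently from nearly all others in the deposited table. Values there carry at most 6 significant digits, but these read 1005.00277 and 1235.816. Below an intensity of 10000, values not written in the usual way numbered 0 in both knockdown columns, 13 of 43482 and 9 of 43858 in the knockout-control columns and 10 and 13 in the wild-type columns. The wild-type values of this Tubb2a probe set, 806.67 and 1294.92, are outside these counts but carry 2 decimals each, fewer than its knockdown values of 345.052 and 136.211. The labels do not say why values are written so, and the part of the knockout-control values in the fall of Tubb2a was not tested. With every probe set holding a counted value left out, an alternative chosen after seeing the data, Tubb2a is represented by its other probe set and its difference turns to 0.18. No value of Adgrg6 or Ano1 was counted, and their numbers of decimals were not compared.

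**Figure D1:**
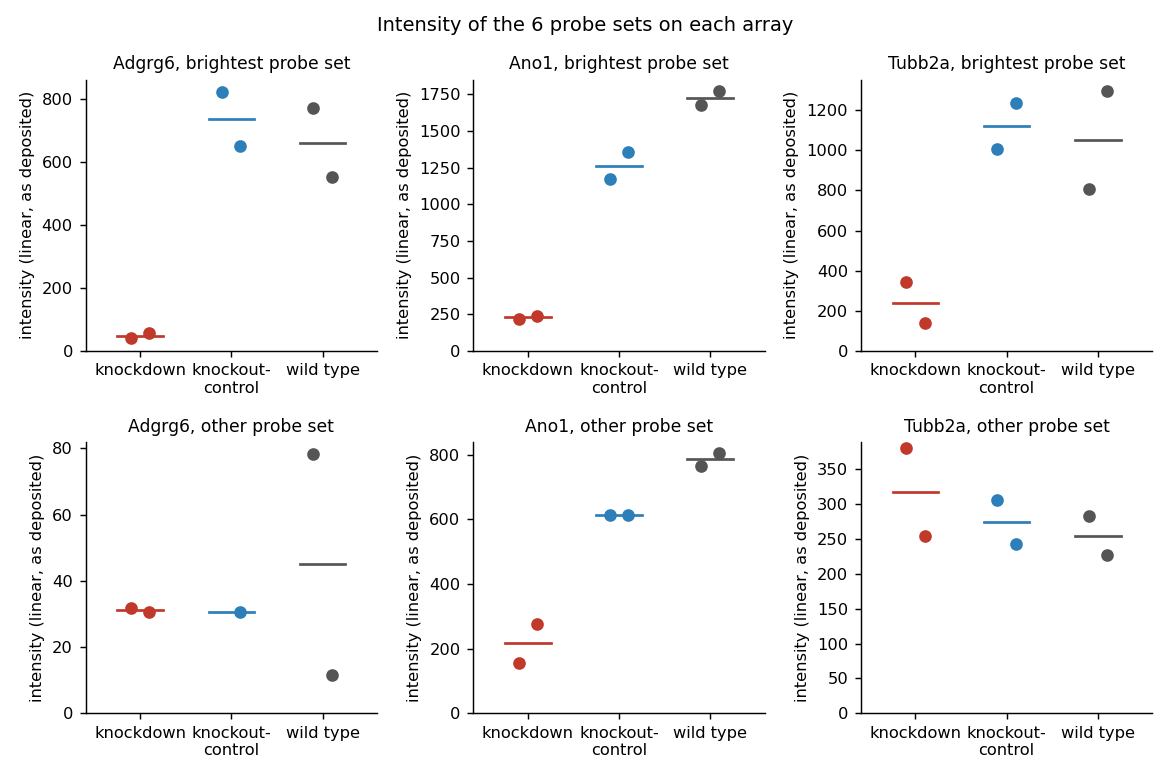
Deposited linear intensity of each of the 6 probe sets (points, 1 per array, with a line at the group mean) in knockdown, knockout-control and wild-type cells, with the brightest probe set of each gene in the upper row. The knockdown arrays lie below all others for the brightest probe sets and for both of Ano1, and not for the other probe sets of Adgrg6 and Tubb2a; vertical scales differ between panels.

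The brightest probe sets of all 3 genes were lower on both knockdown arrays than on both knockout-control arrays, as their choice required. The same held for 21.4% of the 13344 genes with 6 values, and nothing is read from the members' count. All 3 were also lower on both knockdown arrays than on both wild-type arrays (30.4% of genes), with log2 differences of -3.12 for Adgrg6, -2.76 for Ano1 and -2.07 for Tubb2a. These are given without a test, since that comparison shares the knockdown arrays with the one that picked the genes.

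**Figure D2:**
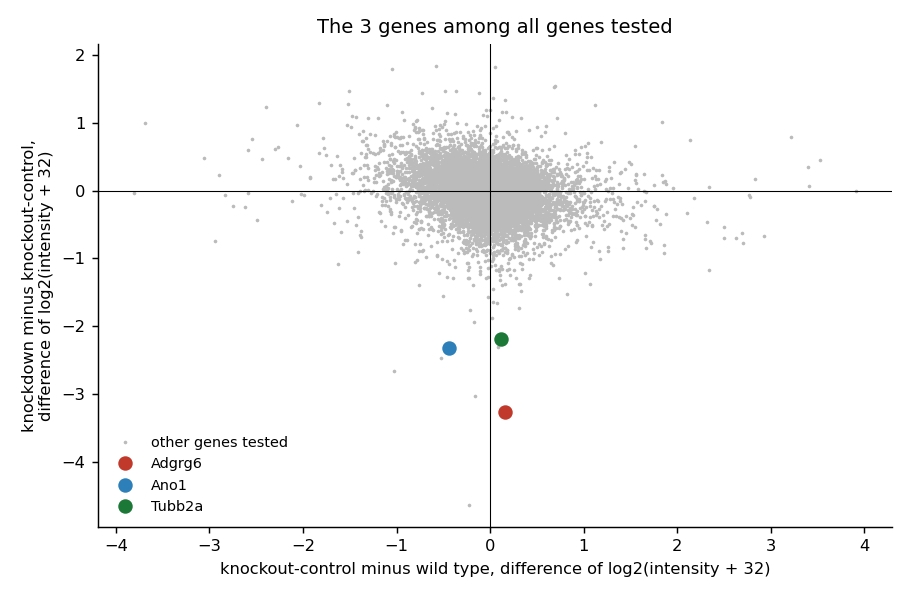
Difference of log2(intensity + 32) for each gene between knockdown and knockout-control cells (vertical) against that between knockout-control and wild-type cells (horizontal), for all genes with both values (grey) and the 3 genes. The 3 genes lie between -3.27 and -2.19 vertically and between -0.44 and 0.16 horizontally; both axes use the knockout-control arrays.

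Cells labelled PGC-1α -/- with the control siRNA were then compared with wild-type cells, a comparison that the choice did not use but that shares the knockout-control arrays with it. None of the 3 genes passed the limma test, with adjusted p-values under 0.05 over 13652 genes required. In that test 2.55% of genes were called higher and 3.5% lower in knockout-control cells, and 1 of the 3 genes, Ano1, had an unadjusted p under 0.05, as did 21.1% of all genes.

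Adgrg6 averaged 736 ± 123 in knockout-control cells and 662 ± 155 in wild-type cells (SD, n = 2 each). The log2 fold change was 0.16 ± 0.21 (SE, limma adjusted p = 0.736), with a 95% interval, not adjusted for the number of genes, from -0.31 to 0.62. The sign turned without knockout-control array 1 (-0.01) and without wild-type array 2 (-0.08). Tubb2a averaged 1120 ± 163 in knockout-control cells and 1051 ± 345 in wild-type cells, with a log2 fold change of 0.12 ± 0.36 (limma adjusted p = 0.899) and an interval from -0.70 to 0.94. This interval spans 0.615-fold to 1.92-fold, so a change of that size would not have been detectable. The sign of the Tubb2a value turned without knockout-control array 2 (-0.02) and without wild-type array 1 (-0.21).

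Ano1 averaged 1264 ± 127 in knockout-control cells and 1724 ± 69.5 in wild-type cells. Its log2 fold change was -0.44 ± 0.15 (SE, limma adjusted p = 0.125), with an interval from -0.77 to -0.11. Both knockout-control arrays were below both wild-type arrays, as for 30.2% of all genes. The other probe set of Ano1 gave -0.34 ± 0.25 when each of 34636 probe sets was fitted on its own (limma adjusted p = 0.563). The difference of Ano1 was negative under all alternatives tried and passed under none of them, with adjusted limma p-values from 0.0554 to 0.622.

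Genes of the same families and of the processes the 3 genes take part in were then read in the same fits, to see which neighbours by function moved with them. The 7 lists held 147 named genes other than the 3, of which 117 were above the intensity filter. Between knockdown and knockout-control cells, 0 of the 117 were called higher and 0 lower by limma, where 0.271% of all genes were called higher and 0.564% lower, so that under 1 call is what the background gives. At an unadjusted p under 0.05 there were 12 of the 117, where 14.1% of all genes reached that level. Between knockout-control and wild-type cells 3 of the 117 were called higher and 3 lower, against 2.55% and 3.5% of all genes, so these counts are near the background and the called genes named below are described singly.

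Among 16 other adhesion receptors above the filter, differences between knockdown and knockout-control cells ran from -0.55 to 0.48 on the log2 scale, with a median of -0.12 against -0.01 for all genes. Adgre5, known as CD97, stood at 1145 and 914 in knockdown cells and 1041 and 1187 in knockout-control cells, and these groups overlapped. Adgrl1, a latrophilin, had 410 and 357 in knockdown cells and 466 and 365 in knockout-control cells. The adhesion receptor that passed in the other comparison was Adgrg2, a receptor known from the male genital tract. It had 397 and 405 in knockout-control cells and 85.2 and 93.3 in wild-type cells (log2 fold change 1.84, limma adjusted p = 0.000392), and it stood at 507 and 447 in knockdown cells. Its wild-type signals were below 163.6, and it passed the intensity filter through the siRNA groups, where it is high. Adgrg2 was thus high in both groups labelled PGC-1α -/-, and its log2 difference between them was 0.23 (limma adjusted p = 0.53).

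Other steps of the Adgrg6 pathway were also measured. Of 21 ligand and cyclic AMP genes above the filter, 0 passed between knockdown and knockout-control cells (4 at an unadjusted p under 0.05), with a median difference of 0.03. Col4a1, a chain of the type IV collagen that Adgrg6 binds, had 6604 and 6033 in knockdown cells and 6112 and 5936 in knockout-control cells. Prnp, which encodes the prion protein, had 4785 and 3764 in knockdown cells and 2657 and 3359 in knockout-control cells, a difference of 0.50 that did not pass (limma adjusted p = 0.259). Gnas, the stimulatory G protein subunit, differed by -0.08 and Adcy3, an adenylyl cyclase, by 0.04. Col4a5, another chain of type IV collagen, was lower in knockout-control than in wild-type cells (-0.57, limma adjusted p = 0.0486), at 670 and 725 against 1077 and 1030, a call lost without any 1 of these 4 arrays (limma adjusted p = 0.131 to 0.378).

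Of the anoctamins, a family of chloride channels and lipid scramblases, 4 besides Ano1 were above the filter and 0 passed in either comparison. Ano6, a scramblase, stood at 1070 and 875 in knockdown cells and 764 and 856 in knockout-control cells. Ano10 had 925 and 834 in knockdown cells and 594 and 564 in knockout-control cells, a difference of 0.58 in the direction opposite to Ano1 that did not pass (limma adjusted p = 0.104). No probe set was named for Ano2, the closest copy of Ano1, alone.

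Among 16 other chloride channels and carriers, 0 passed between knockdown and knockout-control cells, with differences from -0.84 to 0.48. The lowest was that of Best2, itself a calcium-activated chloride channel, which is named here after its values were seen. It had 402 and 338 in knockdown cells, 641 and 735 in knockout-control cells and 857 and 797 in wild-type cells, the same order of groups as Ano1. Its difference between knockdown and knockout-control cells did not pass (limma adjusted p = 0.0539), and ran from -0.96 to -0.73 with 1 array left out. That between knockdown and wild-type cells was -1.10 (limma adjusted p = 0.0046), in a comparison where 1365 of 13644 genes were called. Lrrc8a, the obligate subunit of the volume-regulated anion channel, was higher in knockout-control than in wild-type cells (1.16, limma adjusted p = 0.00802), with 824 and 928 against 376 and 374. Slc12a2, the carrier that loads cells with chloride, was higher too (0.70, limma adjusted p = 0.0266), at 486 on both knockout-control arrays against 283 and 293 in wild type. Lrrc8a lost its call without knockout-control array 2 or either wild-type array (limma adjusted p = 0.0529 to 0.0627), and Slc12a2 without any 1 of the 4 arrays (0.115 to 0.238). Among 11 genes of the release, entry and pumping of calcium, the ion that opens Ano1, 0 passed in either comparison. Their differences between knockdown and knockout-control cells ran from -0.20 to 0.30.

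The other 13 tubulins above the filter differed by -0.15 to 0.29 between knockdown and knockout-control cells, and 0 passed (0 at an unadjusted p under 0.05). Tubb5, a widely expressed β-tubulin, had 7306 and 7169 in knockdown cells and 5725 and 6088 in knockout-control cells, a difference of 0.29 (limma adjusted p = 0.407). Tubb6 stood at 2498 and 1754 in knockdown cells and 1798 and 2093 in knockout-control cells. Tubb2b, the closest copy of Tubb2a and its neighbour on chromosome 13, was below the filter and not tested. It had 166 and 125 in knockdown cells, 66.3 and 69.6 in knockout-control cells and 120 and 97.8 in wild-type cells, so it did not share the order of Tubb2a. Tubb3, another dim β-tubulin, was lowest on the knockdown arrays and is given below with the neuron markers.

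The α-tubulins Tuba1a and Tuba4a were called lower in knockout-control than in wild-type cells. Tuba1a had 1707 and 2414 against 4198 and 4919 (-1.15, limma adjusted p = 0.0302), and Tuba4a had 668 and 913 against 1343 and 1598 (-0.88, limma adjusted p = 0.043). Without any 1 of these 4 arrays neither call passed (limma adjusted p = 0.0521 to 0.21 for Tuba1a and 0.0634 to 0.291 for Tuba4a). The α-tubulins are similar in sequence, and whether probes are shared between copies was not tested. Of 36 genes that fold, bind or modify tubulin, 0 passed in either comparison, and Stmn1, a microtubule-destabilising protein, differed by -0.03 between knockdown and knockout-control cells.

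**Figure D3:**
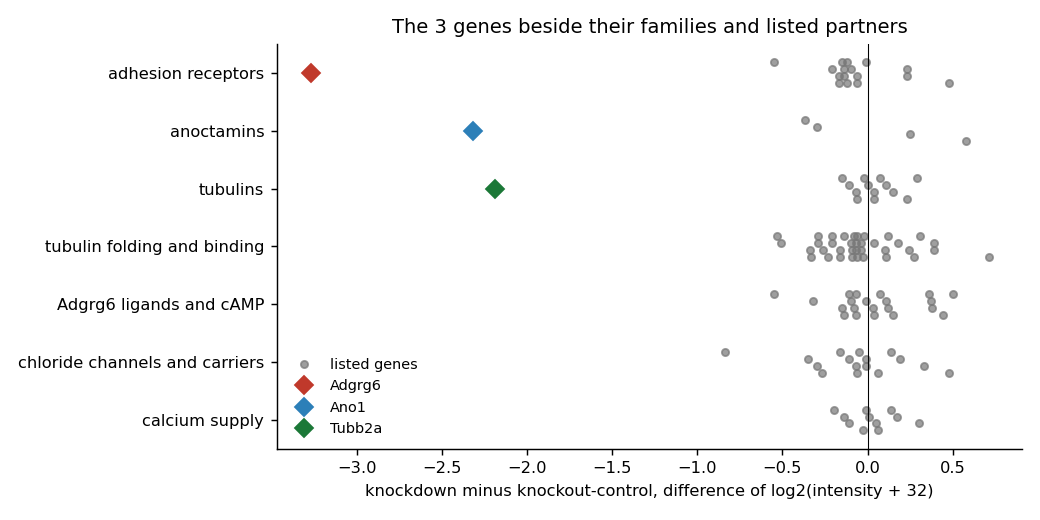
Difference of log2(intensity + 32) between knockdown and knockout-control cells for the listed genes above the intensity filter (grey points, 1 per gene, 117 in all) and for Adgrg6, Ano1 and Tubb2a (diamonds) on the line of their family; vertical offsets within a line have no meaning. Listed genes lie between -0.84 and 0.71, and the 3 genes, chosen for this difference, lie between -3.27 and -2.19.

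Markers of other cell types that express the 3 genes were read on the same arrays. The summed intensity of 6 Schwann cell markers lay between 1748 and 2007 in knockdown cells and between 1893 and 2055 in knockout-control cells. That of 3 markers of the gut pacemaker cells, where Ano1 is known, lay between 556 and 705 in knockdown cells and between 467 and 662 in knockout-control cells. That of 5 markers of smooth muscle, another site of Ano1, lay between 2683 and 2739 in knockdown cells, 3090 and 3287 in knockout-control cells and 4504 and 4970 in wild-type cells, without overlap and in the order of Ano1. Of its members, Acta2 (-0.62, limma adjusted p = 0.0385) and Tagln (-1.39, limma adjusted p = 0.00126) were called lower in knockout-control than in wild-type cells, and Acta2 lost its call without any 1 of these 4 arrays (limma adjusted p = 0.146 to 0.379). The other smooth muscle markers, Myh11, Des and the dim Cnn1, did not share the order of the sum. Myh11 stood at 318 and 400 in knockdown cells, 438 and 433 in knockout-control cells and 355 and 364 in wild-type cells. Des stood at 349 and 324, 307 and 388, and 376 and 398 in these groups. The part of the smooth muscle difference in the values of Ano1 was not tested. The summed intensity of 7 markers of neurons, where Tubb2a is known, was 1453 to 1578 in knockdown cells and 1784 to 2066 in knockout-control cells. In wild-type cells it was 1572 to 1589 and overlapped the knockdown range, which Tubb2a did not. Snap25 had no value on knockout-control array 2 or on either wild-type array, and a missing value adds nothing to the sum. Between knockdown and knockout-control cells Syt1 differed by -0.63, Elavl3 by -0.30, Rbfox3 by -0.22 and Elavl4 by 0.22. Tubb3, a β-tubulin below the filter and not tested, had 139 and 88.5 in knockdown cells and 211 and 183 in knockout-control cells. With 177 and 201 in wild-type cells, its knockdown arrays were the lowest, as for Tubb2a. Stmn2, also below the filter, had 90.7 and 107, 116 and 217, and 52.3 and 67.5 in these groups, with wild type lowest. None of the markers in these 4 lists that were above the filter passed between knockdown and knockout-control cells (lowest limma adjusted p = 0.0795, Tagln). No marker of these lists stood at 0, and no detection calls were used, so such a level does not show that a marker is expressed.

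The genes whose log2 values followed each member most closely over the 6 arrays were found among 1587 other genes with a range of at least 1 on that scale. The correlations are descriptions over 6 arrays that form 3 groups, and a gene that separates the knockdown arrays from the rest necessarily scores high. Adgrg6 was followed by Dio2, the deiodinase that activates thyroid hormone (r = 0.998), Hook1, a linker of cargo to microtubules (0.988), Ucp1 (0.984), Cidea, a lipid droplet protein (0.981), and Adamts1, a secreted protease (0.981). Dio2 had 62 and 66.7 in knockdown cells, 480 and 409 in knockout-control cells and 442 and 390 in wild-type cells, so that, as for Adgrg6, array 1 was the higher among the knockout-control and among the wild-type pair. Of these 5 genes, the Dio2, Ucp1 and Adamts1 probe sets each hold 1 knockout-control value written with more than 6 significant digits.

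Ano1 was followed by Crip2 (r = 0.995), Agbl4, an enzyme that removes glutamates from tubulin (0.995), Mb, the oxygen-binding myoglobin (0.991), Gpc1, a glypican of the cell surface (0.990), and Ucp1 (0.988). Their log2 differences between knockdown and knockout-control cells ran from -4.64 for Ucp1 to -0.87 for Crip2, and those between knockout-control and wild-type cells from -1.03 for Mb to -0.18 for Agbl4. Tubb2a was followed by Impg1 (r = 0.995), the potassium channel gene Kcna7 (0.990), the serotonin receptor gene Htr1f (0.990), Cav3, the caveolin of muscle (0.989), and Uqcrc2, a subunit of respiratory complex III (0.988). In these 5, as in Tubb2a, knockdown array 2 was the lowest of the 6 arrays, and their log2 differences between knockdown and knockout-control cells, from -1.16 to -0.85, were smaller than that of Tubb2a. Among the 3 members, r was 0.970 for Adgrg6 and Ano1, 0.911 for Ano1 and Tubb2a and 0.885 for Adgrg6 and Tubb2a.

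**Figure D4:**
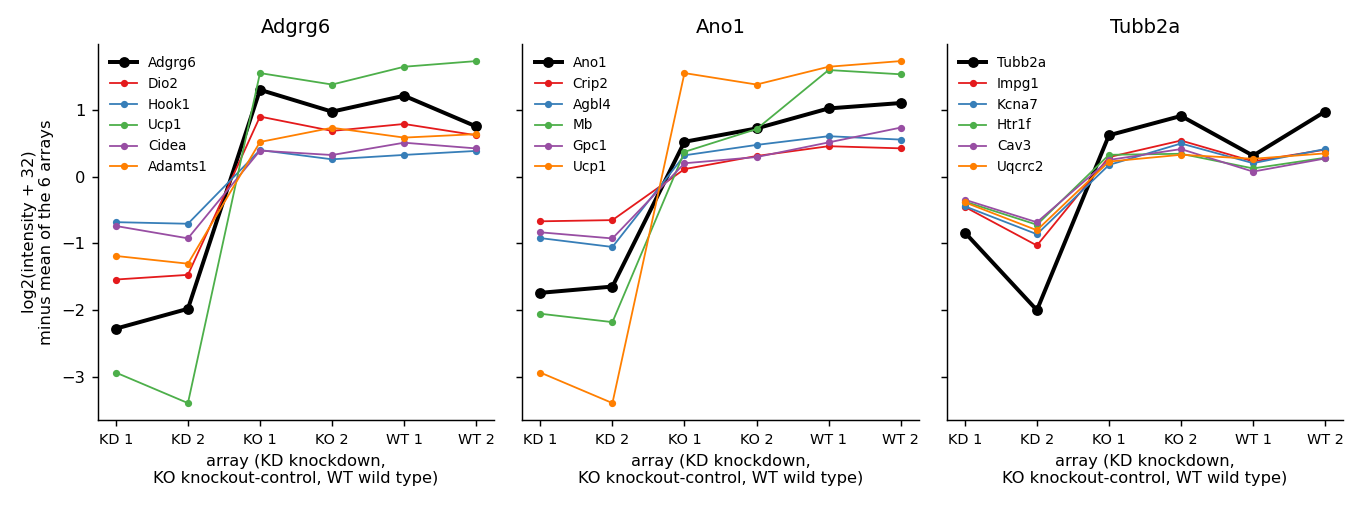
log2(intensity + 32) minus its mean over the 6 arrays for each of the 3 genes (black) and the 5 genes with the highest correlation with it (colours); lines join the arrays of 1 gene and mark no time course. The knockdown arrays lie lowest for every gene drawn, and knockdown array 2 lies below knockdown array 1 in the panel of Tubb2a.

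Of the 3 genes, Adgrg6 had both knockdown arrays at the lowest share of the knockout-control mean, and Ano1 the difference seen by 2 probe sets. The knockdown arrays were 1.08-fold apart on the brightest probe set of Ano1 and 1.77-fold on its other one, against 1.42-fold for Adgrg6 and 2.53-fold for Tubb2a on their brightest. The knockdown array with the lower Ppargc1b signal, array 2, also had the lower Tubb2a signal. The brightest probe set of Adgrg6 was higher on it (55.6 against 39.2), as were both probe sets of Ano1 (236 against 219 and 278 against 157). With 2 arrays this is a description.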

How the data were processed

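RNA of 3 groups of cultured brown adipocytes was measured on 2 arrays each, and the sample titles gave groups and replicate numbers. The authors deposited linear intensities, 1 per probe set and array, for 45037 probe sets; how they summarised, scaled or background-corrected them is not stated in the labels. The medians of the arrays, from 220.9 to 242.7, were close, and no further scaling was applied. Cells holding null (5285) or nothing (870) stayed missing.

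Names came from the platform annotation, updated through Entrez identifiers to GRCm38.p6: 34945 probe sets had 1 symbol (34741 matched), 932 several and 9160 none. For each gene the probe set of highest mean log2(intensity + 32) was used, and genes under the 40th percentile (intensity 163.6) were left out, leaving 13658. One limma model (version 3.58.1, R 4.3.3) of group means was fitted to all 6 arrays, with eBayes and Benjamini-Hochberg adjustment over all genes. The procedure was also run on simulated data with known differences added, as a check of the code only. Precision is limited by the number of arrays, and no exact permutation test was run, since with 2 arrays against 2 its smallest two-sided p is 0.333. The design text calls the replicates biological, and nothing says that they came from separate animals. The members, lists and tests were chosen with earlier results of these data known. Named genes were the members, called or brightest list genes, close copies, the coactivators and the 5 best-correlated genes per member. Arrays with the same number were not shown to pair (correlations of their deviations from the group means of -0.502, -0.147 and 0.202). Alternatives covered the pseudocount, filter, scaling, probe set choice, model settings, a replicate block and each array left out.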

Additional observations from a re-analysis of the deposited data

How the results depend on the processing

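Over 12 results and the alternatives tried, the falls of Adgrg6 and Ano1 in knockdown cells kept their sign in every fit that held the gene; Adgrg6 drops below the filter with the mean of all probe sets. Against knockout-control cells and against wild-type cells, pseudocounts of 1 and 64 gave -3.94 and -2.84, and -3.78 and -2.69, for Adgrg6, and -2.47 and -2.19, and -2.92 and -2.62, for Ano1. The mean of all probe sets gave -1.87 and -2.26 for Ano1 and -1.0 and -0.90 for Tubb2a, and quantile normalization gave -2.66 for Ano1 against wild type. Leaving out probe sets with a differently written value gave 0.18 and 0.27 for Tubb2a. With 1 array left out, whose group's remaining array is assumed to vary like the others, the difference of knockout-control and wild type ran from -0.08 to 0.39 for Adgrg6 and from -0.21 to 0.45 for Tubb2a.

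The genes called between knockdown and knockout-control, 114, numbered 68 with a pseudocount of 1, 9 with no filter, 199 with a filter at the 60th percentile, 381 after quantile normalization, 13 with the mean of probe sets, 325 with trend and robust settings, 47 with only these groups and 8 to 539 with 1 array left out. Between knockout-control and wild type, 826 became 364 with no filter, 1653 after quantile normalization, 474 with the mean of probe sets, 1786 with only these groups and 232 to 1786 with 1 array left out. Between knockdown and wild type, 1365 became 585 with no filter, 2301 after quantile normalization, 778 with the mean of probe sets and 327 to 2339 with 1 array left out. The replicate number as a block gave 22, 410 and 735 calls in these comparisons, and changed no call of the 3 genes against wild type. With the knockdown numbers crossed, a pairing added after seeing the data, the counts were 764, 2037 and 2821. The cause of these shifts was not tested. Without detection calls, the limit of signal over background is unknown.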

Other observations

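In the whole table, 42 probe sets hold at least 1 value written with digits other than the usual 6 significant ones, 32 of them below an intensity of 10000. In 16 probe sets such a value stands in a knockout-control column, and in 6 of these in both. These probe sets were looked up after their values were seen. They include those of Tubb2a, Ucp1, Dio2, the protease genes Adamts1 and Adamts9, the chemokine receptor gene Ackr3, the sulfotransferase gene Chst8, the cytokine gene Il6 and the transcription factor genes Klf4, Fosl1 and Cux1.

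In 14 of these 16 probe sets (87.5%) both knockdown arrays lay below both knockout-control arrays, which was so for 20.4% of the 40980 probe sets with 6 values. The exceptions were those of Armc8 and Spry4. The knockdown values of all 16 are written in the usual way. Their wild-type values all carry 2 decimals, such as 442.13 and 389.78 for Dio2 and 132.00 and 135.20 for Klf4. Most of these wild-type values were not counted above, since a value with fewer than 6 digits was counted only if it ended in 0. The origin of these values was not tested, and the values of the knockdown step for Tubb2a, Ucp1 and Dio2 are given here as deposited.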
